A study of Arabidopsis thaliana with 12 samples.

Results

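The question taken up here is whether the microRNA (miRNA) response of Arabidopsis shoots to low nitrogen depends on HASTY. It was addressed with 133 known miRNA names out of 390 names in the table, which comprised 216 known A. thaliana miRNAs (written without the prefix ath-) and 174 predicted ones. The 133 names were chosen by their counts: a known name entered when it was above 0 in all 12 libraries, and for each the interaction was taken, that is, the low nitrogen response in the hasty knockout minus the low nitrogen response in the wild type. The choice used the counts of these same libraries, and it leaves out names that fall to 0 in a library, which can include large changes. The libraries came from shoots of Col-0 seedlings in 4 groups of 3 biological replicates: hasty-KO in low nitrogen (low N), hasty-KO in the control condition, wild type (WT) in low N and WT in the control condition. All seedlings were 10 days old, and low N plants had 5 days of standard nutrients followed by 5 days of low N. The labels describe neither the control medium nor the hasty allele, and both hasty-KO groups carry the same knockout. The table lists small RNAs only, so neither the absence of HASTY messenger RNA nor the identity of the tissue could be checked with marker genes.

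HASTY is the plant orthologue of the animal nuclear export receptor exportin-5. In Arabidopsis it acts in the production of many mature miRNAs and in their movement between cells, and its loss shortens the juvenile phase and alters leaf shape. A plant miRNA gene gives a hairpin precursor from which a duplex of a 5p and a 3p strand is cut. One strand is loaded into AGO1 and directs the cleavage of matching messenger RNAs, and the other, the passenger strand, is usually degraded. Several miRNA families are known to follow the supply of nutrients: miR399 and miR827 that of phosphate, miR395 that of sulfate, miR397, miR398 and miR408 that of copper, and miR169 falls when nitrogen is scarce.

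The interaction was called for 1 sequence of the miR157 family and for 1 name of the miR169 family, so these are the sequences shown first. All are RefSeq mature sequences on TAIR10.1, written 5′ to 3′ with bases 2 to 8, the seed, in capitals. The names miR157a-3p (chr1:24913205-24913225, minus strand) and miR157b-3p (chr1:24921175-24921195, plus strand) have 1 sequence, and miR157c-3p (chr3:6244527-6244547, minus strand) shares its seed but not all later bases. The 5p strand is the one that targets the SPL genes, and miR157a-5p and miR157c-5p have the same sequence.
miR157a-3p: gCUCUCUAgccuucugucauc
miR157c-3p: gCUCUCUAuacuucugucacc
miR157a-5p: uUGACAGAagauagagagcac
miR157c-5p: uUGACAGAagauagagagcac

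Each pair of strands comes from 1 hairpin, shown here from the first base of the 5p strand to the last base of the 3p strand, with the 3p strand in capitals. MIR157a lies at chr1:24913205-24913296 on the minus strand, MIR157b at chr1:24921104-24921195 on the plus strand and MIR157c at chr3:6244527-6244693 on the minus strand.
MIR157a: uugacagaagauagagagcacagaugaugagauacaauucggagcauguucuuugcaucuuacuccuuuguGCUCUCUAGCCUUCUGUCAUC
MIR157b: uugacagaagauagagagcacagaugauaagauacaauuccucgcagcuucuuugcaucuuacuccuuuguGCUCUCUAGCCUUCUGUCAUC
MIR157c: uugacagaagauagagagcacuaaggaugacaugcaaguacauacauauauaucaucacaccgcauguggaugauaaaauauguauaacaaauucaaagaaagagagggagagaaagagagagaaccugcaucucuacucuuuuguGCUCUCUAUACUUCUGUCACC

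The miR169 family, which targets the NF-YA subunits of a transcription factor, is shown by miR169h (chr1:6695544-6695564, minus strand), by its copy miR169k (chr3:9875675-9875695, minus strand) and by miR169d (chr1:20039556-20039576, minus strand). The mature sequence of miR169h is shared by 7 names, miR169h to miR169n.
miR169h: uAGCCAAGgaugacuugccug
miR169k: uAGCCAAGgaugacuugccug
miR169d: uGAGCCAAggaugacuugccg

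The 133 names held between 95.2% and 96.5% of the counts listed in a library, and the listed counts summed to between 1292752 and 3226269. The lowest totals were those of the hasty-KO low N libraries and the highest those of the WT control libraries (1555260 ± 241451 and 3078190 ± 233803, SD, n = 3 each). The names stand for 92 mature sequences, since 64 of them share a sequence with another name, and they held 125 distinct sets of values. Reads of a shared sequence cannot be assigned to 1 gene. No source used here says whether the authors divided them or listed them under each name. Many copies carry nearly equal counts, such as 164936 for miR166d and 164940 for miR166c in hasty-KO low N replicate 1. If reads were listed under each name, the totals and shares above and the levels below count them more than once. Levels below are counts scaled to 1000000 listed counts per library (CPM) scaled with TMM factors of 0.861 to 1.21. A response is a difference of group means of log2 CPM, low N minus control, and an interaction is the response in hasty-KO minus the response in WT, each ± SE from the spread inside the 4 groups. A change is called when its adjusted p in edgeR's quasi-likelihood test (Benjamini-Hochberg over the 273 tested names) is below 0.05, and 132 of the 133 names were tested.

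Few names were called as responding differently in the 2 genotypes. In whole shoots a change of a miRNA in all cells and a change in the share of cells that hold it cannot be told apart. The interaction was called higher in hasty-KO for 1 of the 132 names, miR169h, and lower for 2 names of 1 sequence, miR157a-3p and miR157b-3p. Over all tested names 0.366% were called higher and 1.47% lower. At an unadjusted p below 0.05 the numbers were 6 higher and 10 lower among the 132 names, against 8 and 19 among the 273 tested names. The smallest adjusted p short of the threshold among the 133 names was 0.122, for miR169i.

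The interaction of the 133 names had a median of -0.15 (log2), with quartiles of -0.33 and 0.14 and a range of -2.89 to 2.36. It lay within 0.5 of 0 for 97 names and beyond 1 for 8. All 273 tested names had a median fitted interaction of -0.14, so a value near that is the centre of the table and not a departure from it. This centre depended on the scaling: it was 0.13 when libraries were scaled to their totals, -0.44 with upper-quartile factors and -0.13 with median-of-ratios factors. Signs of interactions smaller than about 0.5 are therefore not read as directions here.

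**Figure D1:**
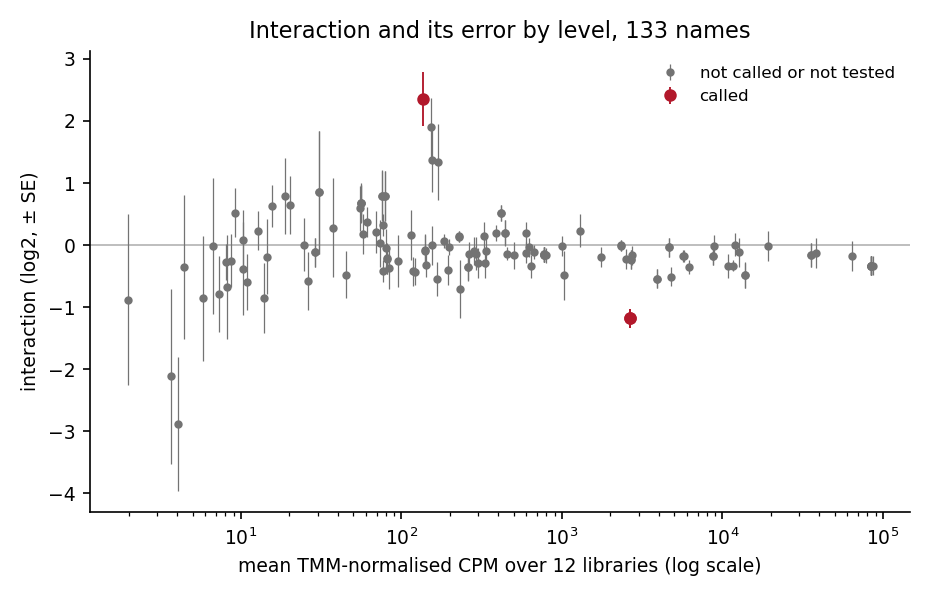
Interaction (log2, hasty-KO response minus WT response, ± SE) of the 133 names against their mean level over 12 libraries on a log scale. The called names are in red, miR169h above 0 and miR157a-3p with miR157b-3p, which overlie each other, below it, and the error bars are longest below 100 CPM.

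How small a difference could have been seen varied with the level. The 95% interval of the interaction lay within 1 log2 unit of 0 on both sides for 90 of the 133 names, and for the other 43 it reached 1 or more. Of the 86 names with a mean of at least 100 CPM, 76 had an interval within 1, with a median half-width of 0.37. Among the 47 names under 100 CPM only 14 did, with a median half-width of 0.93. With TMM scaling, a change of the response by a factor of 2 was thus within the interval for most of the rare miRNAs. It was outside the interval for most of the abundant ones. These intervals cover the spread inside the groups and not the choice of scaling. That choice moved the centre of all tested names from 0.13 with library totals to -0.44 with upper-quartile factors. The interval stayed within 0.5 for 24 names.

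In hasty-KO, 17 of the 132 tested names rose in low N and 29 fell, where 8.79% of all tested names rose and 15% fell. In WT, 37 rose and 24 fell, where 17.2% of all tested names rose and 15% fell. Counted as mature sequences, of 91 tested, 15 rose and 17 fell in hasty-KO, and 25 rose and 14 fell in WT. These splits moved with the scaling: with library totals 12 rose and 31 fell in hasty-KO and 11 rose and 39 fell in WT, and with upper-quartile factors 6 rose and 56 fell in hasty-KO and 20 rose and 28 fell in WT. Without hasty-KO control replicate 2 the names that fell in hasty-KO numbered 17, and without WT control replicate 1 those that rose in WT numbered 16.

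The calls were then set side by side. All 17 names that rose in hasty-KO were called higher in WT too, with a median fitted response of 0.79 in hasty-KO and 1.03 in WT, and none had a called interaction. Of the 29 that fell in hasty-KO, 23 were called lower in WT and 2, miR157a-3p and miR157b-3p, higher. All 24 names that fell in WT had a response of the same sign in hasty-KO and 23 were called there, with a median fitted response of -1.29 in hasty-KO and -1.56 in WT. The name miR169h, with its called interaction, is among these 24. Of the 37 that rose in WT, 17 were called in the same direction in hasty-KO and 2, again miR157a-3p and miR157b-3p, in the opposite one. Their median fitted response was 0.41 in hasty-KO and 0.61 in WT. Across the 132 names the Spearman correlation between the fitted responses in the genotypes was 0.73 (Pearson r = 0.85), and 96 names had the same sign in both. The names share library totals, sequences and scaling, so this is a description. The hasty-KO and the WT response have no library in common.

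The names in each of these sets were chosen by a call in 1 genotype, which favours a smaller response in the other, so the sizes of the medians are not compared. The interaction was called for 2 of the 37 names that rose in WT, miR157a-3p and miR157b-3p, and for the other 35 no difference between the genotypes was shown.

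**Figure D2:**
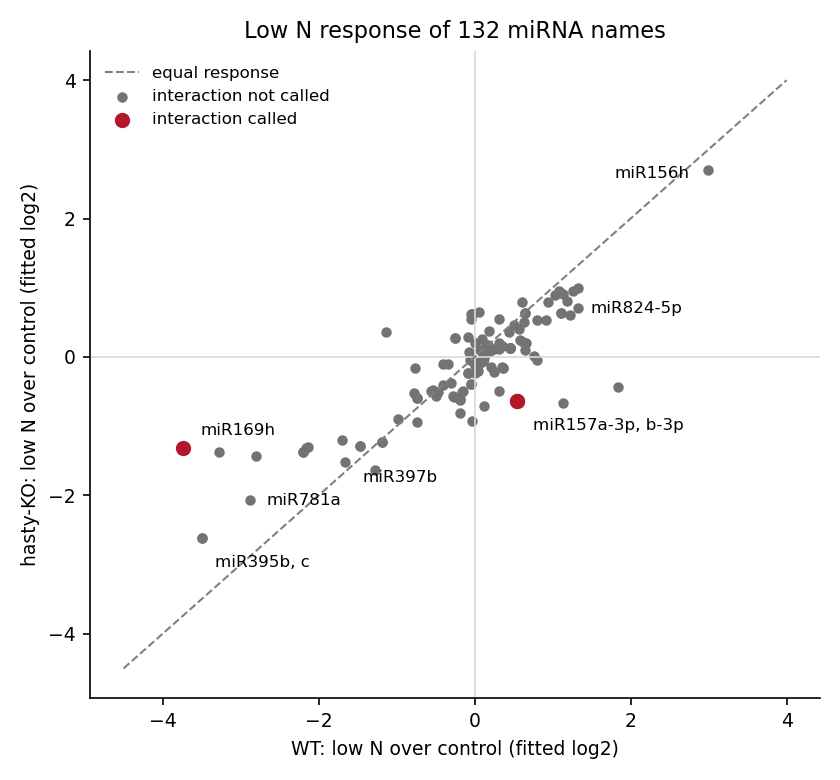
Fitted low N response (log2, low N over control) in hasty-KO on the vertical axis against WT on the horizontal axis for 132 names; the dashed line marks equal responses. Most points follow the line, with miR395b and c and miR156h at its ends, and the called points are miR157a-3p with miR157b-3p below the line and miR169h above it.

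The sequence of miR157a-3p and miR157b-3p fell in hasty-KO and rose in WT. It is the passenger strand of the miR157 hairpins, whose guide strands, with those of miR156, keep shoots in the juvenile phase by acting on SPL genes. The 3 hasty-KO low N libraries held 1425, 1422 and 1880 CPM and the 3 hasty-KO control libraries 2512, 2392 and 2428 CPM. The 3 WT low N libraries held 4244, 3685 and 3671 CPM and the 3 WT control libraries 2592, 2610 and 2781 CPM. Low N libraries lay below every control library in hasty-KO and above every control library in WT. The response was -0.65 ± 0.11 in hasty-KO (adjusted p = 0.0023) and 0.54 ± 0.11 in WT (adjusted p = 0.0037). The interaction was -1.18 ± 0.16 (95% interval -1.54 to -0.82, adjusted p = 0.0022).

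The direction of this interaction was the same in all 26 alternative fits, with fitted values of -1.46 to -0.88, and the call was lost in 3 of them. The adjusted p was 0.194 with library totals, 0.056 without a filter on low counts and 0.121 without hasty-KO control replicate 2. Relative to the median of all tested names the interaction was -1.03, with a range of -1.18 to -0.94 over the alternatives. The fall in hasty-KO was called under all 4 scalings and the rise in WT under 2 of the 4.

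Ratios of miRNAs within a library do not depend on the scaling. The sequence of miR157a-3p is shared with miR157b-3p, and that of miR157a-5p with miR157b-5p and miR157c-5p. Their ratio is therefore not that of 1 hairpin. The log2 ratio of the counts listed for miR157a-3p and miR157a-5p was -1.64 ± 0.29 in hasty-KO low N and -1.16 ± 0.13 in hasty-KO control. It was 0.39 ± 0.09 in WT low N and 0.24 ± 0.17 in WT control (SD, n = 3 each). The count listed for miR157a-3p was thus below that for miR157a-5p in every hasty-KO library and above it in every WT library. The interaction of this ratio was -0.64 ± 0.21. Against miR157c-3p, the passenger strand of the third hairpin, the interaction of miR157a-3p was -0.84 ± 0.18.

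The other miR157 names did not pass the test of the interaction. Guide strand miR157a-5p, with the same values as miR157b-5p, had 4876 ± 189 CPM in hasty-KO low N, 5460 ± 378 in hasty-KO control, 2937 ± 155 in WT low N and 2273 ± 369 in WT control (SD, n = 3 each). Its response was -0.16 ± 0.11 in hasty-KO (adjusted p = 0.33) and 0.38 ± 0.11 in WT (adjusted p = 0.022), and its interaction of -0.54 ± 0.15 had an adjusted p of 0.135. The call was made in 4 of 24 alternative fits. Values of miR157c-5p were alike, with an interaction of -0.51 ± 0.15 (adjusted p = 0.164), although its deposited counts were not those of miR157a-5p despite the shared sequence.

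Passenger strand miR157c-3p fell in both genotypes, unlike miR157a-3p. It had 273.5 ± 38.8 CPM in hasty-KO low N and 848 ± 144 in hasty-KO control, and 417.5 ± 17.2 CPM in WT low N and 1015 ± 18.7 in WT control (SD, n = 3 each). The responses were -1.63 ± 0.14 in hasty-KO and -1.28 ± 0.14 in WT (adjusted p = 3.3e-05 and 9.5e-05), and the interaction was -0.35 ± 0.19 (adjusted p = 0.485).

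**Figure D3:**
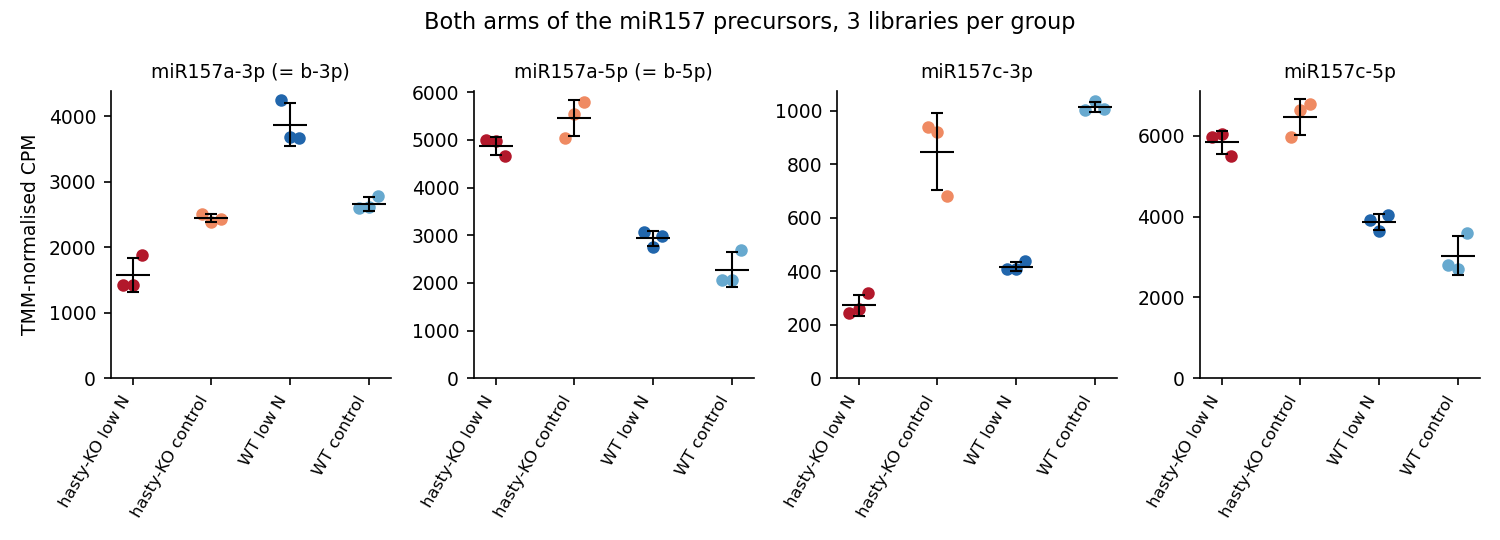
TMM-normalised CPM of the 4 distinct miR157 strand names in 3 libraries per group, as points with mean and SD (bars), on linear axes that start at 0. In miR157a-3p the low N points lie below control in hasty-KO and above control in WT, whereas in miR157c-3p low N lies below control in both genotypes.

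Among the other juvenile phase names, miR156b-3p rose to 14002 ± 271 CPM in hasty-KO low N, against 11790 ± 570 in hasty-KO control, and to 12326 ± 1070 CPM in WT low N, against 8231 ± 264 in WT control (SD, n = 3 each). The rise in WT was called under 3 of 4 scalings. That in hasty-KO was called under 2 of 4, and its fitted response ran over them from -0.16 to 0.31, so its direction turned. The interaction of miR156b-3p, -0.33 ± 0.09, had an adjusted p of 0.135. The 5p name miR156a-5p held 677, 590 and 623 CPM in hasty-KO low N and 690, 647 and 643 in hasty-KO control. In WT it held 939, 918 and 951 CPM in low N and 885, 781 and 993 in control. Low N and control libraries of miR156a-5p thus overlapped in both genotypes. This 5p name was singled out after its values were seen. The rare miR156h had the largest rise of any of the 132 names in both genotypes, with 12.1 ± 1.47 CPM in hasty-KO low N, 1.83 ± 1.40 in hasty-KO control, 11.3 ± 3.97 in WT low N and 1.37 ± 0.753 in WT control (SD, n = 3 each). Its responses of 3.15 ± 0.77 in hasty-KO and 3.17 ± 0.77 in WT passed the test (adjusted p = 0.019 and 0.0088), and the interval of the interaction ran from -2.54 to 2.50. Of 19 tested miR156 and miR157 names (11 sequences), 2 rose and 4 fell in hasty-KO, beside 8.79% and 15% of all tested names. In WT 7 rose and 2 fell, beside 17.2% and 15% of all tested names. With library totals the names that rose were 1 in hasty-KO and 1 in WT.

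The miR172 family, which acts on AP2-type genes and marks the adult phase, had 4 tested names and none was called in either genotype or in the interaction. For miR172b-5p, with 120.1 ± 19.4 CPM in hasty-KO low N and 167.4 ± 30.9 in WT low N (SD, n = 3 each), the interval of the interaction was -0.73 to 0.52. The other strand, miR172b-3p, was rarer, with 9.59 ± 2.01 CPM in hasty-KO low N and 6.12 ± 1.84 in WT low N (SD, n = 3 each). The interval of its interaction was wider, at -2.19 to 0.61.

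The called interaction of miR169h goes together with an unusual pattern of deposited counts. Its counts were 44, 55 and 89 in hasty-KO low N, 265, 251 and 182 in hasty-KO control, 50, 58 and 71 in WT low N, and 1428, 1443 and 1038 in WT control. The 3 WT control libraries stood above all others, and low N lay below control in both genotypes. The response was -1.39 ± 0.31 in hasty-KO (adjusted p = 0.011) and -3.75 ± 0.31 in WT (adjusted p = 5.2e-05), with an interaction of 2.36 ± 0.43 (95% interval 1.36 to 3.36, adjusted p = 0.014).

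The name miR169k, with the same mature sequence, had exactly the count of miR169h in 9 libraries. In the 3 WT control libraries miR169h exceeded miR169k by exactly 1000, 1000 and 600 counts. A like excess was seen in 2 more names of this sequence. The count of miR169i exceeded that of miR169j by 1000, 999 and 999 in the WT control libraries and by 100 in WT low N replicate 1. That of miR169l exceeded that of miR169k by 1019, 1020 and 1021 in the WT control libraries and by 101 and 102 in WT low N replicates 1 and 2. Whether these round differences come from reads or from the making of the table was not tested.

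The 4 names of this sequence without the excess, miR169j, miR169k, miR169m and miR169n, had interactions of 0.79 to 0.80 with an adjusted p of 0.448 each. For miR169k the levels were 43.8 ± 18.4 CPM in hasty-KO low N, 108.6 ± 13.5 in hasty-KO control, 27.3 ± 6.06 in WT low N and 121.9 ± 6.97 in WT control (SD, n = 3 each). Its responses were -1.39 ± 0.29 in hasty-KO and -2.18 ± 0.29 in WT (adjusted p = 0.010 and 0.00045), and the interval of its interaction was -0.14 to 1.74. All 7 names fell in both genotypes, the 4 without the excess as well as the 3 with it. The interaction was 1.89 ± 0.48 for miR169i (adjusted p = 0.122) and 1.38 ± 0.52 for miR169l (adjusted p = 0.296). When the names of each mature sequence were summed, the sum of the 7 had a fitted interaction of 1.54 (adjusted p = 0.041). This sum includes the excess of miR169h, miR169i and miR169l in the WT control libraries, and no sum without it was fitted.

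**Figure D4:**
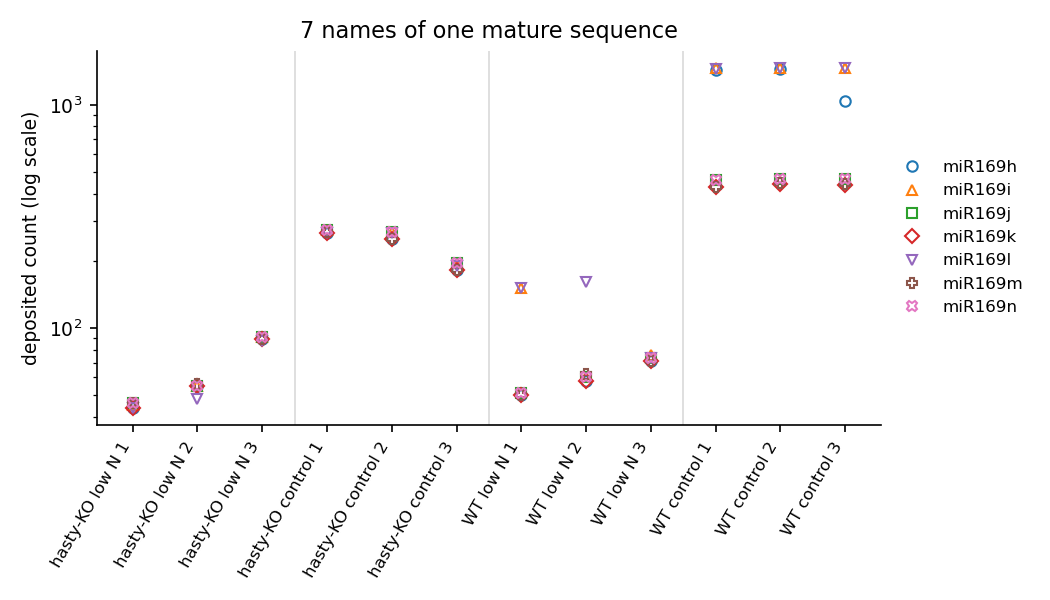
Deposited counts, on a log scale, of the 7 names miR169h to miR169n in the 12 libraries. All 7 lie together in the hasty-KO libraries, while in the WT control libraries miR169h, miR169i and miR169l lie above 1000 and the other 4 between 428 and 466.

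The call for miR169h was also lost with the replicate number as a block and without WT low N replicate 2 (adjusted p = 0.058 and 0.054), with fitted interactions of 2.41 and 2.47. In each genotype 15% of all tested names fell. Of the 15 tested miR169 names (6 sequences), 7 fell in hasty-KO and the same number in WT. In each genotype these were miR169h to miR169n, which are names of 1 sequence. Those of another sequence shared neither the size nor always the sign: miR169d, which is also that of miR169e, had a response of 0.63 in hasty-KO and -0.04 in WT, with neither called and an adjusted p of 0.483 for the interaction.

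Most names of the families tied to copper fell in each genotype. Tested were 9 names (7 sequences). They belong to miR397, which acts on laccases, miR398, which acts on copper superoxide dismutases, and miR408, which acts on plantacyanin and laccases. Of these names, 8 fell in hasty-KO and 8 in WT, beside 15% of all tested names in each genotype. None of the 9 had a called interaction. Their median fitted interaction was 0.14, beside -0.14 over all tested names, and it was -0.15 with upper-quartile factors and 0.41 with library totals. The most abundant, miR398b-3p with the same values as miR398c-3p, had 2556, 2866 and 3066 CPM in hasty-KO low N, 7122, 6561 and 6178 in hasty-KO control, 2541, 3029 and 2659 in WT low N and 5581, 6444 and 6748 in WT control. Low N and control libraries of miR398b-3p (chr5:4691107-4691127, plus strand) did not overlap in either genotype, and the genotypes overlapped in both conditions. Its responses were -1.23 ± 0.10 in hasty-KO and -1.19 ± 0.10 in WT (adjusted p = 3.3e-05 and 5.2e-05), and its interaction was -0.04 ± 0.15 (95% interval -0.38 to 0.30).
miR398b-3p: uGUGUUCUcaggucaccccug
miR397b: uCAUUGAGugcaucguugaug

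The levels of miR397b (chr4:7878730-7878750, minus strand) were 88.6 ± 10.8 CPM in hasty-KO low N, 252.8 ± 37.9 in hasty-KO control, 230.6 ± 33.1 in WT low N and 726 ± 76.4 in WT control (SD, n = 3 each). Every hasty-KO library lay below every WT library of the same condition, yet the responses were -1.51 ± 0.15 in hasty-KO and -1.66 ± 0.15 in WT, both called, with an interaction of 0.15 ± 0.22 (95% interval -0.35 to 0.66). For miR408-5p the response was not called in hasty-KO (-0.55 ± 0.19, adjusted p = 0.065) and was called in WT (-0.78 ± 0.19, adjusted p = 0.0076). The test of the difference gave an interaction of 0.23 ± 0.27 (adjusted p = 0.654). The other strand, miR408-3p, held 206, 222 and 200 CPM in hasty-KO low N and 350, 292 and 296 in hasty-KO control. In WT it held 297, 379 and 238 CPM in low N and 331, 417 and 347 in control. For miR408-3p, low N lay below control without overlap in hasty-KO and overlapped control in WT. This strand was singled out after its values were seen.

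The miR395 family, which acts on ATP sulfurylases and a sulfate transporter, also fell in both genotypes, at a low level. The names miR395b and miR395c had identical values, at 6.58, 6.21 and 1.45 CPM in hasty-KO low N, 22.4, 37.9 and 27.8 in hasty-KO control, 2.47, 9.51 and 9.56 in WT low N and 86.1, 82.1 and 74.8 in WT control. Low N lay below control in both genotypes without overlap. The responses of -2.88 ± 0.70 in hasty-KO and -3.73 ± 0.70 in WT were called (adjusted p = 0.014 and 0.0028), while the interval of the interaction, -1.44 to 3.14, left room for a difference in either direction.

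Phosphate-related names differed more in appearance than in the test. miR827, which acts on the ubiquitin ligase gene NLA, had 70.3 ± 9.25 CPM in hasty-KO low N, 65.2 ± 10.7 in hasty-KO control, 321 ± 44.0 in WT low N and 205.9 ± 43.3 in WT control (SD, n = 3 each). It was not called in hasty-KO (0.11 ± 0.19, adjusted p = 0.80) and rose in WT (0.65 ± 0.19, adjusted p = 0.027), and the rise in WT was called under 2 of 4 scalings. Its interaction of -0.54 ± 0.27 had an adjusted p of 0.483. The reverse was seen for miR399b, of the family that acts on PHO2, which fell in hasty-KO (-0.59 ± 0.17, adjusted p = 0.031) and was not called in WT (-0.17 ± 0.17, adjusted p = 0.51). The difference between those responses was -0.42 ± 0.23 (adjusted p = 0.495).

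Leaf development miRNAs held the most abundant names. In hasty-KO 8.79% of all tested names rose and 15% fell, and in WT 17.2% rose and 15% fell. Of 22 tested names (13 sequences) of miR164, miR165, miR166, miR319 and miR396, 6 rose and none fell in hasty-KO. In WT 15 of these names rose and none fell. These counts were 6 and 0 in hasty-KO and 5 and 2 in WT with library totals, and 1 and 2 in hasty-KO and 6 and 2 in WT with upper-quartile factors. Several of the 22 are copies: miR166a-3p and 6 more names have 1 sequence, which acts on HD-ZIP III genes of leaf polarity. miR166a-3p had 98027 ± 14518 CPM in hasty-KO low N, 89873 ± 6007 in hasty-KO control, 90481 ± 7322 in WT low N and 66191 ± 2356 in WT control (SD, n = 3 each). It was not called in hasty-KO (0.12 ± 0.11, adjusted p = 0.49) and rose in WT (0.45 ± 0.11, adjusted p = 0.0096), a rise called under 2 of 4 scalings, with an interaction of -0.33 ± 0.16 (adjusted p = 0.448).

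The related miR165a-3p rose in both genotypes, by 0.62 ± 0.15 in hasty-KO and 1.11 ± 0.15 in WT (adjusted p = 0.010 and 0.00029), with an interaction of -0.49 ± 0.21 (adjusted p = 0.404). The miR164 names described here, which act on NAC genes, also rose in both genotypes. For miR164b-5p the 3 hasty-KO low N libraries held 1871, 1787 and 1793 CPM, the hasty-KO control libraries 1199, 1171 and 1138 CPM, the WT low N libraries 3558, 4170 and 3972 CPM and the WT control libraries 2332, 2487 and 2655 CPM. All hasty-KO libraries lay below all WT libraries, and low N lay above control in both. Its responses were 0.64 ± 0.07 in hasty-KO and 0.65 ± 0.07 in WT, and the interval of its interaction was -0.22 to 0.20. This name was singled out after its values were seen. For miR164c-5p the responses were 0.95 ± 0.12 in hasty-KO and 1.07 ± 0.12 in WT, both called, with an interaction of -0.12 ± 0.17. The growth regulators of the GRF family are the targets of miR396, and miR396a-5p was not called in either genotype, with an interval of -0.57 to 0.55 for the interaction.

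The passenger strand miR166a-5p (chr2:19176128-19176148, plus strand), with the same sequence and values as miR166b-5p, was not called here but was called in 8 of 25 alternative fits, more often than any other of the 133 names that was not called. It was singled out after its values were seen.
miR166a-5p: gGACUGUUgucuggcucgagg
miR166a-3p: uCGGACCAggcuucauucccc

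It had 484.6, 437 and 388 CPM in hasty-KO low N, 378, 368 and 341 in hasty-KO control, 388, 365 and 434 in WT low N and 459, 451 and 501 in WT control. Low N lay above control in hasty-KO and below control in WT, without overlap in either. The responses were 0.26 ± 0.10 in hasty-KO and -0.25 ± 0.10 in WT, neither of them called (adjusted p = 0.085 and 0.079), and the interaction was 0.51 ± 0.13 (95% interval 0.20 to 0.83, adjusted p = 0.135). With library totals its fitted interaction was 0.78 (adjusted p = 0.016), and relative to the median of all tested names it was 0.66.

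Auxin-related families showed no called interaction in 14 tested names (10 sequences). In hasty-KO 2 of them rose and 1 fell, beside 8.79% and 15% of all tested names. In WT 3 rose, beside 17.2% of all tested names. miR160c-5p, which acts on ARF repressors, and miR167a-5p, which acts on ARF6 and ARF8, were not called in either genotype, with intervals of -0.59 to 0.12 and -0.61 to 0.30 for the interaction. The name that fell was passenger strand miR167a-3p, at 4486 ± 689 CPM in hasty-KO low N, 6315 ± 861 in hasty-KO control, 15366 ± 1377 in WT low N and 17038 ± 1224 in WT control (SD, n = 3 each). Its fall of 0.50 ± 0.14 (log2) in hasty-KO had an adjusted p of 0.021, its response in WT was -0.15 ± 0.14 (adjusted p = 0.48), and the interaction of -0.34 ± 0.19 had an adjusted p of 0.490. In contrast miR167c-3p rose in both, by 0.97 ± 0.16 in hasty-KO and 1.27 ± 0.16 in WT (adjusted p = 0.0021 and 0.00029).

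Families that act on the small RNA machinery itself differed in their calls. Across the 10 tested names (7 sequences) of miR162, miR168 and miR403, 1 rose and 1 fell in hasty-KO. In WT 3 of these names rose and 1 fell. Over all tested names the shares that rose and fell were 8.79% and 15% in hasty-KO and 17.2% and 15% in WT. miR403-3p, which acts on AGO2, had 262, 261 and 277 CPM in hasty-KO low N, 143, 173 and 146 in hasty-KO control, 643, 647 and 746 in WT low N and 429, 426 and 482 in WT control. Low N lay above control in both genotypes without overlap. It rose by 0.80 ± 0.09 in hasty-KO and 0.61 ± 0.09 in WT (adjusted p = 0.00022 and 0.00087), with an interaction of 0.19 ± 0.13 (adjusted p = 0.586). Passenger strand miR168a-3p fell in both, by 0.47 ± 0.08 in hasty-KO and 0.54 ± 0.08 in WT (log2, adjusted p = 0.0075 and 0.0024), with an interaction of 0.07 ± 0.11 (adjusted p = 0.996). miR403-3p and miR168a-3p were singled out after their values were seen. miR162b-3p, which acts on DCL1, had an interval of -0.41 to 0.06 for the interaction and was called in neither genotype. miR168a-5p, which acts on AGO1, had 5806 ± 327 CPM in hasty-KO low N, 5329 ± 672 in hasty-KO control, 13175 ± 1048 in WT low N and 10618 ± 586 in WT control (SD, n = 3 each). Its response in hasty-KO was 0.13 ± 0.10 (adjusted p = 0.44), its rise in WT (0.31 ± 0.10, adjusted p = 0.030) was called under 2 of 4 scalings with a fitted response down to -0.05, and its interaction was -0.18 ± 0.14 (adjusted p = 0.586).

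miR842 and miR824-5p rose in both genotypes. The first, which acts on jacalin lectin genes, had 528.6 ± 41.5 CPM in hasty-KO low N, 284.8 ± 13.9 in hasty-KO control, 682.5 ± 42.4 in WT low N and 334.9 ± 21.0 in WT control (SD, n = 3 each). Its responses of 0.89 ± 0.08 in hasty-KO and 1.03 ± 0.08 in WT were called under all 4 scalings, and its interaction was -0.14 ± 0.11 (95% interval -0.39 to 0.11). The stomatal miR824-5p, which acts on the MADS-box gene AGL16 had 247 ± 9.67 CPM in hasty-KO low N, 124.3 ± 14.8 in hasty-KO control, 139.5 ± 16.6 in WT low N and 55.9 ± 7.36 in WT control (SD, n = 3 each). Hasty-KO libraries of this miRNA lay above WT libraries in both conditions, and the responses were 1.00 ± 0.13 in hasty-KO and 1.32 ± 0.13 in WT, again called under all 4 scalings. The interaction of miR824-5p was -0.33 ± 0.19 (adjusted p = 0.514).

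Of the 4 tested MYB regulators, 2 rose in hasty-KO and 3 in WT, beside 8.79% and 17.2% of all tested names. miR159b-3p, which acts on MYB33 and MYB65, rose by 0.51 ± 0.17 in hasty-KO and 0.64 ± 0.17 in WT (adjusted p = 0.047 and 0.014), with an interaction of -0.13 ± 0.24. miR858a, which acts on MYB genes of flavonol synthesis, rose by 0.53 ± 0.17 in hasty-KO and 0.93 ± 0.17 in WT (adjusted p = 0.048 and 0.0028), with an interaction of -0.40 ± 0.24 (adjusted p = 0.526). The response of miR159a was 0.40 ± 0.17 in hasty-KO, not called, and a rise of 0.57 ± 0.17 in WT (adjusted p = 0.114 and 0.023). That of miR159c was called in neither, at 0.35 ± 0.16 in hasty-KO and 0.45 ± 0.16 in WT (adjusted p = 0.157 and 0.059). With library totals none of the 4 tested MYB names was called in either genotype.

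Of 8 tested names (6 sequences) of miR170 and miR171, which act on GRAS genes, 2 fell in hasty-KO. In WT 1 of these names rose and 2 fell. Over all tested names 15% fell in each genotype and 17.2% rose in WT. The miR170 and miR171 names that fell were the passenger strands miR171a-5p and miR170-5p. Their listed counts were nearly equal in every library, so they are not 2 separate results. miR170-5p fell in both genotypes, by 0.60 ± 0.06 in hasty-KO and 0.74 ± 0.06 in WT (log2, adjusted p = 0.00042 and 0.0001), and the interval of its interaction was -0.07 to 0.34. Guide strand miR171a-3p was called in neither, with responses of -0.39 ± 0.18 in hasty-KO and -0.30 ± 0.18 in WT (adjusted p = 0.172 and 0.234). The name that rose was miR171c-5p, with 0.69 ± 0.32 in hasty-KO (adjusted p = 0.222) and 1.29 ± 0.32 in WT (adjusted p = 0.021).

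The lineage-specific miR781a fell in both genotypes, with 1.15 ± 0.404 CPM in hasty-KO low N, 5.02 ± 2.29 in hasty-KO control, 8.25 ± 1.10 in WT low N and 61.1 ± 16.1 in WT control (SD, n = 3 each). Its responses were -2.07 ± 0.43 in hasty-KO and -2.87 ± 0.43 in WT (adjusted p = 0.010 and 0.00085), with an interval of -0.61 to 2.20 for the interaction.

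**Figure D5:**
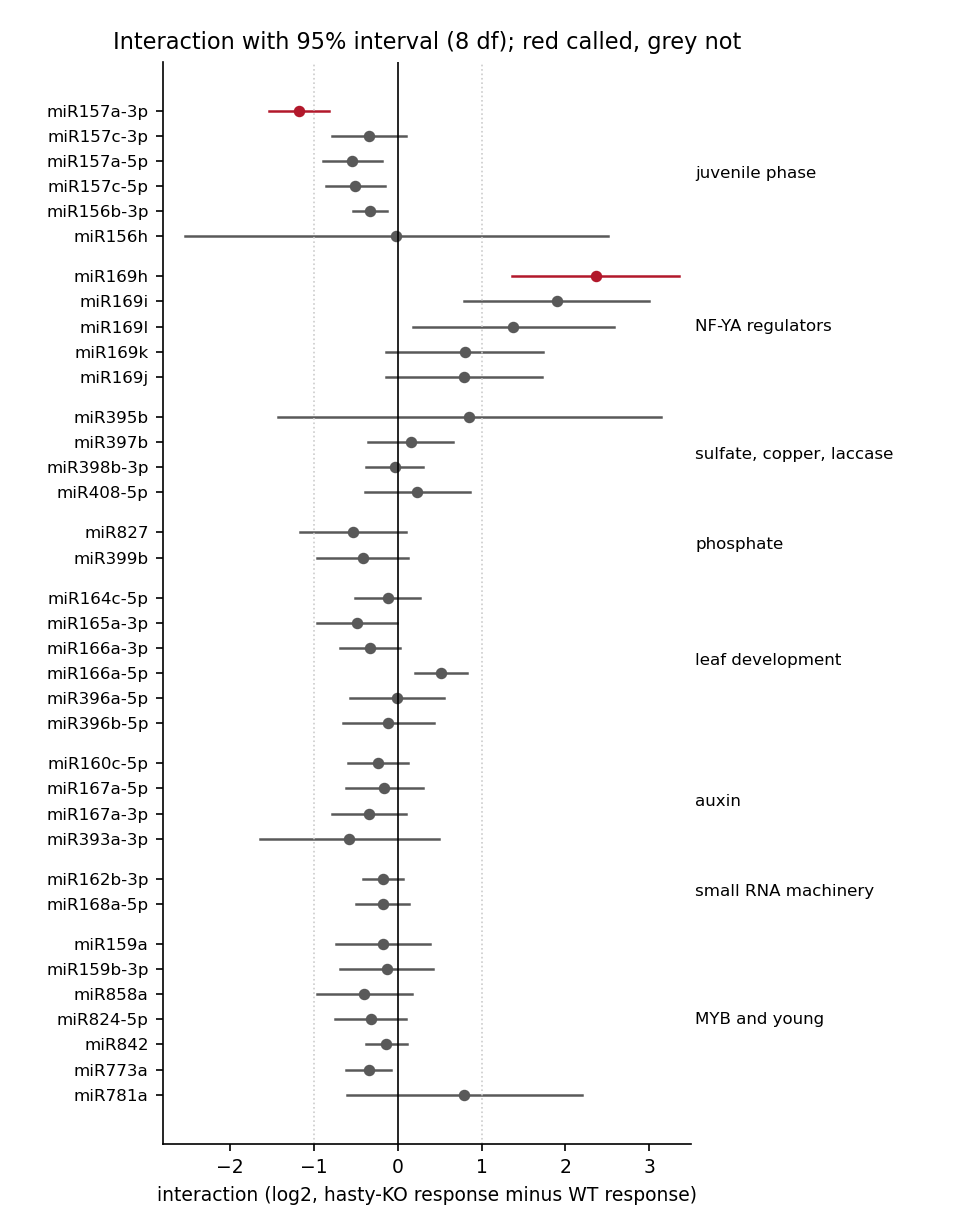
Interaction (log2, hasty-KO response minus WT response) of named miRNAs with its 95% interval, grouped by the process their targets belong to; dotted lines mark 1 log2 unit on either side of 0. The intervals of miR157a-3p and miR169h, in red, lie farthest from 0 relative to their width, and those of miR156h and miR395b are the widest.

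The strand, length and location of the names were compared as descriptions. The median fitted interaction was -0.31 for the 41 tested 3p names, -0.13 for the 46 tested 5p names and -0.01 for the 45 names without a strand suffix. It was -0.12 for the 102 names of 21 bases and -0.14 for the 16 names of 20 bases. All 3 called names are on chromosome 1 by the annotation of RefSeq, where 33 tested names lie, and 2 of these 3 share 1 sequence. The sequence of the other, miR169h, is also that of miR169i to miR169n on chromosome 3, so its reads cannot be placed on chromosome 1.

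At the edge of the choice, 6 names had a lowest count of 1 in a library: miR156h, miR169f-3p, miR172d-3p, miR172d-5p, miR403-5p and miR781a. For miR172d-3p, miR172d-5p and miR169f-3p the interactions were -0.88 ± 1.38, -2.12 ± 1.42 and -2.89 ± 1.09, and miR172d-3p was too low to be tested. Just outside, 83 known names were absent from the counts (0) of at least 1 library. The largest of these by total were miR822-3p, miR822-5p and miR390a-5p, each at 0 in 3 libraries. The counts of miR822-3p were 4721, 4640 and 5149 in hasty-KO low N, 5071, 6119 and 0 in hasty-KO control, 6312, 3816 and 4657 in WT low N, and 4617, 0 and 0 in WT control. A 0 beside counts above 1000 in replicates of the same group is given here as listed. Of the 83 names, 40 were among the 273 tested.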

How the data were processed

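Small RNA of shoots was sequenced in 12 libraries, 4 groups of 3, after ligation of adaptors and PCR per the labels' protocols. The authors deposited 1 table named TPM whose values are whole-number counts that sum to a different total in each library, so it was treated as counts. Trimming, alignment and counting are not given in the sources used here, and the submitters' processing notes name only mm10, a mouse assembly that cannot be the reference of these names. Intervals and errors cover 3 libraries per group, and PCR reads carry no molecular identifiers per the labels.

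Names were filtered with filterByExpr (273 of 390 kept) and fitted with edgeR 4.0.16 in R 4.3.3: TMM factors, 1 coefficient per group, glmQLFit and glmQLFTest, two-sided, 8 residual degrees of freedom, Benjamini-Hochberg over all tested names, threshold 0.05. Values with ± SE are differences of mean log2 CPM without a pseudocount. List medians and alternatives use edgeR's fitted log2 values, which differed from them by a median of 0.0099 and at most 0.62. Mature sequences and positions were read from the RefSeq annotation of TAIR10.1 for 216 of 216 known names.

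The members and lists were chosen with earlier results of these data known. Named miRNAs are those with a called interaction, the 3 most abundant of each family list, the 10 most abundant mature sequences, the 5 largest called responses in each direction and genotype, and the 3 names nearest the choice on either side; names sharing a sequence were described together. Other scalings and filters, DESeq2 1.42.0, limma 3.58.1 with voom, a replicate block and fits without 1 library at a time were alternatives. The labels do not say that equal replicate numbers pair libraries, and whether they do was not settled. The procedure was tested on simulated counts that had 1 spread for all names. These data do not, so that test gives no error rate for them.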

Additional observations from a re-analysis of the deposited data

Results flagged for a closer look

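The test of the interaction itself (edgeR, adjusted p below 0.05) called 5 of the 273 tested names. The fitted interaction was -1.17 for miR157a-3p and -1.17 for miR157b-3p, which are 1 sequence (adjusted p = 0.0022). It was 2.42 for miR169h (adjusted p = 0.014), whose WT control counts exceed those of the identical miR169k by 1000, 1000 and 600. The other names are predicted, with no sequence in the files used here, and both are listed at 0 in all 3 hasty-KO low N libraries. NovelmiRNA-70 had 2082, 2347 and 1542 counts in hasty-KO control, 2279, 1946 and 2362 in WT low N and 4823, 4683 and 5685 in WT control, with a fitted interaction of -13.57 (adjusted p = 6.3e-08). NovelmiRNA-66 had 51, 87 and 91 counts in hasty-KO control, 9, 18 and 10 in WT low N and 393, 394 and 377 in WT control, with a fitted interaction of -5.19 (adjusted p = 0.014). Fitted values of a name at 0 throughout a group depend on the prior count and are no bound. Each 0 is given as listed, and whether it stands for absence was not tested.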

How the results depend on the processing

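The 3 members called in the interaction were 1 higher and 2 lower. The higher count was 3 with library totals and 3 without a filter, 4 among known names alone, 4 with DESeq2, 2 with limma-voom and 0 with a replicate block. The lower count was 0 with library totals and 0 without a filter, 5 with upper-quartile factors, 5 with DESeq2, 4 with identical rows counted once, and 1 with one name per mature sequence or with such names summed, an alternative chosen after seeing the data. Leaving out 1 library gave 0 to 4 higher and 0 to 5 lower. Over all tested names the 5 calls became 9 with upper-quartile factors, 25 with DESeq2, 12 with limma-voom and 3 with a replicate block, and 3 to 11 with 1 library left out. Replicate numbers are not stated to pair libraries, and deviations of same-numbered libraries correlated at -0.31 to 0.33 (median -0.11, over 0.1 in 5 of 18 pairs).

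In hasty-KO the 17 rises became 6 with upper-quartile factors, 26 among known names, 27 with DESeq2 and 8 with names summed, and the 29 falls became 56 with upper-quartile factors, 17 with one name per sequence, 19 with names summed and 17 to 32 with 1 library left out. The rises in WT, 37 in number, became 11 with library totals, 20 with upper-quartile factors, 24 without a filter, 14 with one name per sequence, 15 with names summed and 16 to 38 with 1 library left out. The falls in WT, 24 in number, became 39 with library totals. The cause was not tested where these counts moved; fewer names are fitted where names of a sequence are merged. The Spearman correlation of the responses was within 0.05 of its value in every alternative. Of 57 named miRNAs none with a called interaction changed its sign, and 28 never called did in 1 or more alternatives. Called responses changed sign under another scaling for 1 of 27 named miRNAs in hasty-KO (miR156b-3p) and for 3 of 36 in WT (miR157c-5p, miR168a-5p and miR168b-5p). Intervals were wider below 100 CPM; depth and replicate spread were not separated.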
